A study of Mus musculus with 4 samples.

Results

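Chaperones and heat shock proteins help other proteins fold. The 69 genes described here are those of the 14721 in the count table whose symbols begin with Hspa, Hspb, Hspd, Hspe, Hsph, Hsp90, Dnaja, Dnajb, Dnajc or Cct and continue with a family number or letter code. They were divided, from general knowledge, into 10 stress-induced genes, 7 constitutive cytosolic genes, 12 genes of the endoplasmic reticulum (ER), 8 mitochondrial genes, 7 genes of the chaperonin CCT, 3 other small heat shock genes and 22 other J-domain genes. No sample was given a heat or other proteotoxic treatment, so "stress-induced" is a name for the group and not a measurement. The genes were read in single T cells from B16F10 melanomas and from lymph node, with 1 RNA library per tissue, so no difference has a replicate check, no test between animals was possible, and every interval covers counting error only.

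Per the labels' protocols, B16F10 cells, an established mouse melanoma line, were implanted under the skin in matrigel. Mice then received cyclophosphamide at 250 mg/kg, a drug that depletes lymphocytes, followed 1 day later by purified CD4+ T cells of the strain labelled RAG1- BW TRP-1 TCR, which carry a receptor for the melanocyte protein TRP1 and the CD45.1 marker. Tumors were taken at day 11 after transfer, and CD4+ and CD4+CD8+ cells were sorted. All 4 samples, an RNA and a receptor library per tissue, carry the same strain, the same sort, the same source (B16 melanoma resections) and "untreated" as their treatment, while the titles call the tumor libraries transgenic and endogenous and the lymph node libraries endogenous. The labels do not say how many animals were pooled.

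In the tumor RNA library 33147030 UMIs (counts of single RNA molecules) were spread over 5570 cells, at a median of 5862.5 each, and in the lymph node library 29067001 UMIs over 4988 cells, at a median of 5596.5. The authors' cell labels were used: Tdp (2693 cells), Cd4 (2451) and Tcell (406) in tumor, and Cd8 (2788), Cd4 (1873) and Treg (321) in lymph node. The sources used here do not spell out Tdp. The Tcell label was the shallowest, with a median of 2040 UMIs per cell. All 5 T cell markers were counted in each of the 6 labels, with a summed level of 3234 to 7223 UMIs per 1e6 UMIs (CPM), while the 5 melanoma markers summed to at most 1.19 CPM and the macrophage markers to at most 4.75 CPM. B cell, dendritic and endothelial markers summed to at most 31.0, 19.8 and 51.9 CPM, highest in Treg, tumor Tdp and lymph node Cd4. Ribosomal protein genes took 29.2% of tumor UMIs and 43.3% of lymph node UMIs, which shifts every other gene's CPM between the libraries. Within lymph node the share was 31.9% in Treg, 43.6% in Cd4 and 44.3% in Cd8, so the CPM of Treg is shifted too. The libraries share 36 cell barcodes.

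In general, Hsp70 proteins bind unfolded chains in a cycle that J-domain proteins start and nucleotide exchange factors end, Hsp90 completes the folding of kinases and receptors, and CCT folds actin and tubulin inside a ring. Heat shock factor 1 raises the stress-induced genes when unfolded protein accumulates in the cytosol, and the sensors ATF6 and IRE1, the latter through Xbp1, raise the ER chaperones when it accumulates in the ER. Activated T cells need these machines for growth and secretion, and isolating cells from tissue is itself known to raise stress-induced and immediate early genes.

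Regulatory sequence was read from RefSeq windows (GRCm38.p6) covering the 250 bases before each start site, present for 56 of the 69 genes. The heat shock element searched for was GAANNTTCNNGAA, or TTCNNGAANNTTC on the other strand, and the ER stress element was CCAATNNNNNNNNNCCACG, or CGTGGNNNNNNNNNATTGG. Exact heat shock elements lay upstream of Hspd1, Hspe1 and Dnajb6, or 5.36% of these genes, against 0.446% of the 10770 table genes with a window and 0.466% of all 32851 windows. Exact ER stress elements lay upstream of Hspa5, Hsp90b1 and Dnajc3, which is 3 of 10 ER genes with a window, against 0.167% of table genes and 0.113% of all windows. A match describes letters only, and a window without one says nothing about the factor.

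The sequences below are shown because they carry these matches, in capitals, and each is read 5′ to 3′ on the strand of its gene. Hspe1 and Hspd1 are neighbours on opposite strands of chromosome 1, and their RefSeq gene models share 96 bases, so the Hspe1 stretch at chr1:55088053-55088082 holds the matches of both genes, and its 2 matches overlap by several bases. The Dnajb6 window lies at chr5:29735748-29735897 on the plus strand, that of Hspa5 at chr2:34771940-34772089 on the plus strand, that of Hsp90b1 at chr10:86705445-86705594 on the minus strand and that of Dnajc3 at chr14:118937782-118937931 on the plus strand. A further Hsp90b1 match lies upstream of the printed bases.
Hspe1 and Hspd1, plus strand, heat shock element: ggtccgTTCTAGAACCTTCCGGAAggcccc
Dnajb6, heat shock element: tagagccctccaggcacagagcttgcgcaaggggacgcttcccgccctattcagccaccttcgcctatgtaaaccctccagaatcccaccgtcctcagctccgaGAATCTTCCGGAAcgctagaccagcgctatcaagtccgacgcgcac
Hspa5, ER stress element: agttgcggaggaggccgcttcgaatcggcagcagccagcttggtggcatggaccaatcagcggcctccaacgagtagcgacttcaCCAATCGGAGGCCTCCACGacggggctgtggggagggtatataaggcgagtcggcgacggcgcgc
Hsp90b1, ER stress element: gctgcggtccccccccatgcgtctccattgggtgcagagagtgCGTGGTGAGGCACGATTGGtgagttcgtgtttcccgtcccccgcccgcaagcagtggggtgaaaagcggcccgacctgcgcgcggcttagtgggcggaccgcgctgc
Dnajc3, ER stress element: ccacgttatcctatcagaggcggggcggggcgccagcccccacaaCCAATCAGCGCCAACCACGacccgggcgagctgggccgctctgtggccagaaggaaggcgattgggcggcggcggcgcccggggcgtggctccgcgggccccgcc

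Hspa1a and Hspa1b, the inducible cytosolic Hsp70 genes, are near-identical neighbours on chromosome 17 with 10120 bases between them. Their windows are shown because they are so alike: over 300 bases, of which the first 250 lie before the start site, 296 are identical. The printed bases lie before the start site and give no reads themselves. The 5′ chemistry reads the start of the transcript, and where the transcripts of near-identical genes are alike, reads of one can be assigned to the other. The Hspa1a stretch is chr17:34972157-34972306 and the Hspa1b stretch chr17:34959239-34959388, both on the minus strand, with capitals on the base that differs between them. Their separate values below are uncertain for that reason. Hspe1 and Hspa8 have processed copies elsewhere in the genome, and the sources used here do not say how reads shared with copies were counted.
Hspa1a: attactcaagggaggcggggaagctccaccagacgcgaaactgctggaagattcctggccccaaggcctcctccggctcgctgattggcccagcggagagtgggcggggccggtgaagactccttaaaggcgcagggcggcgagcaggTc
Hspa1b: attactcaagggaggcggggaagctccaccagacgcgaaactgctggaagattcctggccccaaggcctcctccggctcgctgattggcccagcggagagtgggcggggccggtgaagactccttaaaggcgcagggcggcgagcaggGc

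The 69 genes together held 9288 CPM in tumor and 8661 CPM in lymph node, and 7687 to 9681 CPM in the 6 labels. Of these genes, 43 reached 20 CPM in at least 1 label, 26 stayed below it in all 6, and Dnajc22 had no UMI. Among the 43, the highest and lowest label differed by under 2-fold for 23 genes and by 2-fold or more for 20. By plain totals, Treg was the highest label for 19 of the 43, and the shallow tumor Tcell label was the lowest for 20. The corresponding shares over all genes were not computed, so neither these counts nor the 2-fold ranges are shown to be particular to chaperones. The place of Treg depends on the scaling: against lymph node Cd4, 33 of 42 counted genes were above a log2 ratio of 0 by plain totals (median 0.17), and 10 of 41 with TMM, a scaling that sets the bulk of genes equal (median -0.17). The median of all genes was 0.305 by plain totals and -0.05 with TMM. Relative to it the chaperone median was lower in both, by 0.14 and 0.12. Without receptor, mitochondrial and ribosomal genes in the total it was lower by 0.07.

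Among the stress-induced genes, Hspa1a stood at 22.1 CPM in tumor Tdp, 39.7 in tumor Cd4, 17.8 in tumor Tcell, 32.1 in lymph node Cd8, 44.1 in lymph node Cd4 and 48.9 in lymph node Treg. The tumor Tdp level lay below that of every other label but Tcell, whose interval of 9.96 to 29.4 CPM includes it. Hspa1b was low throughout, between 11.4 CPM in tumor Tdp and 19.4 CPM in Treg. Hsp90aa1, the inducible cytosolic Hsp90, ran from 115 CPM in tumor Tcell through 221 in tumor Tdp, 260 in lymph node Cd4, 269 in tumor Cd4 and 278 in lymph node Cd8 to 362 in Treg. Dnajb1, the J-domain partner of inducible Hsp70, ranged only from 148 CPM in Treg to 221 CPM in lymph node Cd4, with 185 in tumor Tdp and 204 in tumor Cd4.

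Dnaja1, another cytosolic J-domain partner, stood at 410 CPM in tumor Tdp, 358 in tumor Cd4, 220 in tumor Tcell, 320 in lymph node Cd8, 384 in lymph node Cd4 and 407 in Treg. Hsph1, a nucleotide exchange factor of the Hsp110 class, stayed between 42.7 CPM in lymph node Cd4 and 57.8 CPM in Treg. Dnajb4, a cytosolic J-domain gene, was between 5.93 CPM in tumor Tcell and 25.6 CPM in lymph node Cd4, and all 3 lymph node labels lay above all 3 tumor labels. The mitochondrial chaperonin genes followed the library too: Hspe1 had 301 CPM in tumor Tdp, 253 in tumor Cd4 and 358 in tumor Tcell against 566 in lymph node Cd8, 437 in lymph node Cd4 and 422 in Treg. The levels of the tissues did not overlap, although the intervals of tumor Tcell (319 to 401) and Treg (393 to 452) did. Hspd1, its partner across the shared upstream stretch printed above, had 68.8 to 93.7 CPM in the tumor labels and 105.5 to 125.0 CPM in the lymph node labels. The share of all genes that separate the 3 tumor labels from the 3 lymph node labels in this way was not computed. The separation is thus not shown to be particular to Dnajb4, Hspe1 and Hspd1.

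The abundant constitutive genes Hspa8 and Hsp90ab1 differed by 1.33-fold and 1.46-fold between their highest and lowest label, while Hspa4l, of the same group, differed by 3.67-fold, from 12.0 CPM in lymph node Cd8 to 44.1 CPM in Treg. Hspa8 had 3093 CPM in tumor Tdp, 2527 in tumor Cd4, 2544 in tumor Tcell, 2323 in lymph node Cd8, 2318 in lymph node Cd4 and 2605 in Treg, so tumor Tdp stood above the other 5 labels. Hsp90ab1, the constitutive cytosolic Hsp90, ran from 1470 CPM in tumor Tcell to 2151 CPM in Treg, with 1743 in tumor Tdp and 1882 in tumor Cd4. Among ER genes, Hsp90b1 had 225 CPM in tumor Tdp, 227 in tumor Cd4, 129 in tumor Tcell, 111 in lymph node Cd8, 116 in lymph node Cd4 and 197 in Treg. Treg thus lay between the deep tumor labels and the other lymph node labels for this gene. Dnajb11, a J-domain partner of the ER Hsp70, was highest in Treg at 81.9 CPM, beside 76.4 in tumor Tdp, 73.2 in tumor Cd4, 43.1 in lymph node Cd8 and 50.5 in lymph node Cd4.

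**Figure D1:**
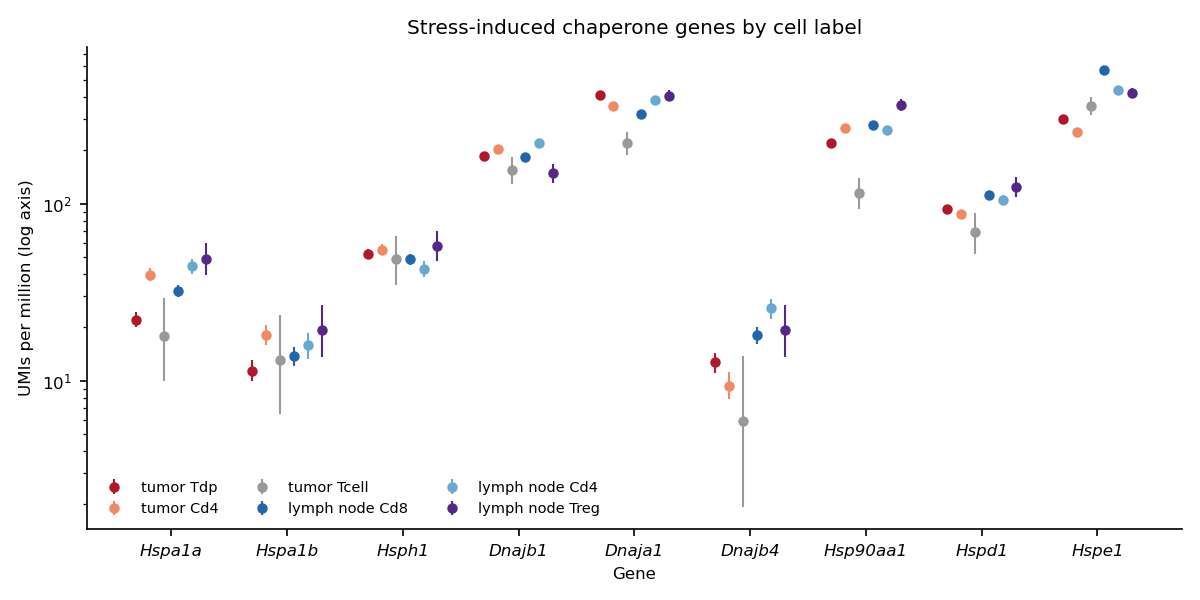
Level of 9 stress-induced genes in 6 cell labels, in CPM on a log axis; points are summed UMIs of a label and bars are 95% Poisson intervals that cover counting error. Hspe1 and Dnajb4 are higher in all lymph node labels than in all tumor labels, and Hspa1a is lower in tumor Tdp (22.1) than in tumor Cd4 (39.7). The share of all genes that separate the labels by tissue was not computed.

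Tumor Tdp-labelled cells were set against tumor Cd4-labelled cells among cells carrying the transgenic receptor. The series concerns double positive T cells, but whether the Tdp label stands for them is not spelled out. In 2682 Tdp and 2435 Cd4 cells with a transgenic chain, taken as the alpha or beta chain most frequent in the tumor, no chaperone gene differed by 2-fold: 0 of 40 counted genes were called higher, against a background of 1.18% of 4816 genes, and 0 were called lower, against 2.33%. Counted genes had at least 20 CPM on either side, and a call needed a 2-fold ratio of CPM plus 1. The median log2 ratio was -0.11 over these 40 genes and -0.11 over all genes counted. The share of all calls that were higher in Tdp was 33.7% by plain totals and 45.5% with TMM.

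The smaller differences ran in both directions. Hspa1a stood at 22.1 CPM in Tdp beside 39.5 in Cd4, or 1.79-fold lower in Tdp (1.57 to 2.04). Hspa1b, under 20 CPM on both sides and so not among the counted genes, was at 11.4 and 17.9 CPM, or 1.57-fold lower (1.30 to 1.89). Dnajc4, a J-domain gene of the mitochondrial group, was at 14.0 and 26.5 CPM, or 1.89-fold lower (1.61 to 2.23). Hspa8, the constitutive cytosolic Hsp70, went the other way, with 3093 CPM in Tdp beside 2524 in Cd4, or 1.23-fold higher (1.21 to 1.24). These 4 genes kept their direction under both other scalings.

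Dnajc9, a J-domain protein that binds histones, had 73.7 CPM in Tdp beside 49.4 in Cd4, 1.49-fold higher (1.36 to 1.64). Dnajc15 was at 395 and 309 CPM, 1.28-fold higher (1.23 to 1.33). At the lower end of their groups were Hspa4l at 1.40-fold lower (1.23 to 1.58), Dnajc14 at 1.43-fold lower (1.27 to 1.60) and Hspa5, the ER Hsp70, at 1.24-fold lower (1.20 to 1.28). The 6 counted CCT genes lay between Cct3 at 1.13-fold lower (1.03 to 1.25) and Cct5 at 1.08-fold higher (1.02 to 1.15). Another scaling changed the direction of 9 of the 40 genes in this comparison, all of them close to 1-fold in every scaling; Hsp90b1, at a log2 ratio of -0.01, is an example.

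**Figure D2:**
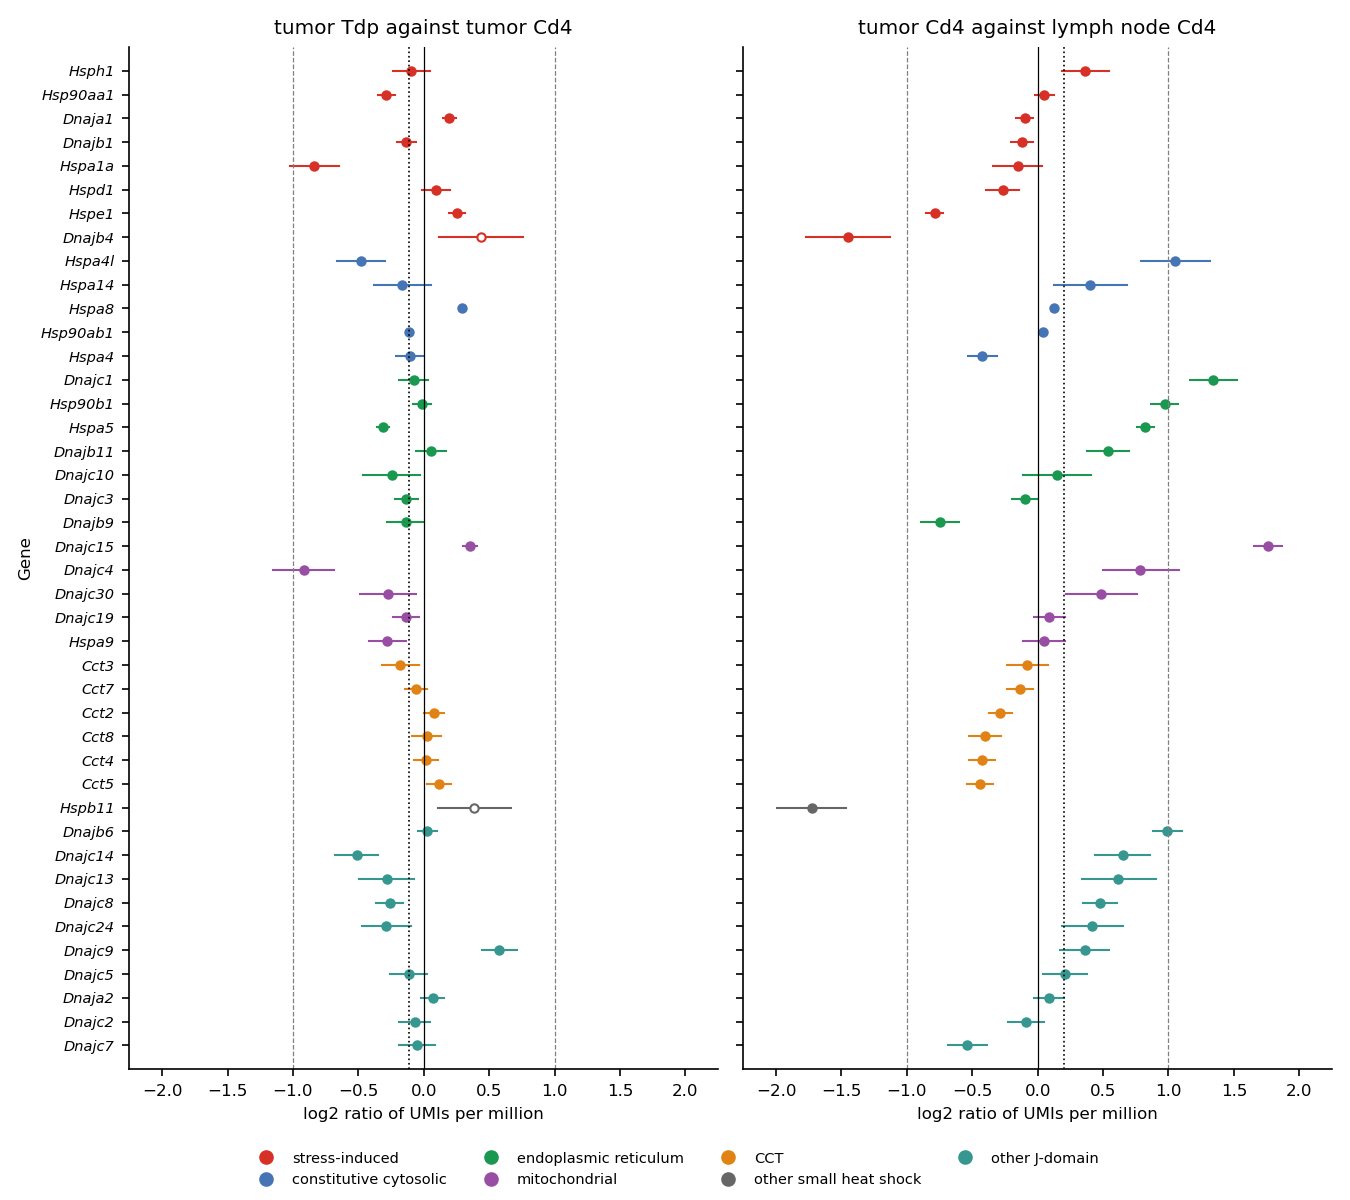
log2 ratio of CPM for 42 chaperone genes, by group, in 2 comparisons; bars are 95% counting intervals, open points are genes under 20 CPM in both groups of that comparison, dashed lines mark 2-fold and dotted lines the median of all genes counted. In the left panel all points lie within 2-fold; in the right panel Dnajc15, Dnajc1 and Hspa4l lie beyond 2-fold on the tumor side and Hspb11 and Dnajb4 on the lymph node side.

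Between the tissues the groups of chaperones differed in direction. Across the whole libraries 2 of 41 counted genes were called higher in tumor, against 11.5% of 4977 genes, and 1 was called lower, against 5.18%. Dnajb6, a suppressor of protein aggregation, was at 193 CPM in tumor and 95.8 CPM in lymph node (2.02-fold, 1.93 to 2.11), and Dnajc1, an ER membrane J-domain protein, at 87.0 and 41.5 CPM (2.10-fold, 1.96 to 2.24). Hspb11, which despite its symbol is a subunit of the intraflagellar transport complex, was at 14.5 CPM in tumor and 36.0 CPM in lymph node, 2.48-fold lower (2.22 to 2.76). Hspb11 was still called with TMM, in cells thinned by random draw to 2000 UMIs each and without receptor, mitochondrial and ribosomal genes in the total, while Dnajb6 and Dnajc1 were called under none of these 3. Without those genes Dnajb4 and Hspe1 were called lower in tumor, so that 0 of the calls were then higher. Tissue, library, transgenic cells and cell makeup differ together between these libraries and cannot be told apart.

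Because ribosomal protein genes took a larger share of lymph node UMIs, the median of all genes was a log2 ratio of 0.16, and -0.18 when receptor, mitochondrial and ribosomal genes were left out of the total. The share of called genes that were higher in tumor went from 68.9% to 42.1% with that change, so the groups are given relative to the median of all genes. The 7 counted ER genes had a median of 0.45 above it, or 0.46 under TMM scaling and 0.36 without ribosomal genes (8 genes). The 6 CCT genes had a median of 0.43 below it, with 0 of 6 above 0 in all 3 scalings, and the 8 stress-induced genes 0.42 below it, or 0.33 below it without ribosomal genes (9 genes). The 5 constitutive cytosolic genes had a median of 0.12 above it, or 0.12 under TMM scaling and 0.16 without ribosomal genes. Their own median log2 ratio went from 0.28 to -0.02 without ribosomal genes, as the median of all genes also fell. Between the tumor and lymph node Cd4 labels this group lay 0.08 below the median of all genes. It was 0.07 below with TMM and 0.02 below without ribosomal genes. In tumor Tdp against lymph node Cd8 it lay 0.24 above.

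The tumor and lymph node Cd4 labels gave a closer match of cell label. Of 42 counted genes 3 were called higher in tumor Cd4, against 14.7% of 5133 genes, and 2 were called lower, against 6.21%; the higher share of chaperone genes is thus below the background. Tumor Cd4-labelled cells serve in this comparison and in the first, and lymph node Cd4-labelled cells in this one and in both comparisons within the lymph node. The share of all calls that were higher in tumor moved from 70.4% to 44.2% when receptor, mitochondrial and ribosomal genes were left out of the total, and the median of all genes from 0.20 to -0.17.

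Dnajc15 had the largest ratio, at 311 CPM in tumor Cd4 and 91.7 CPM in lymph node Cd4 (3.39-fold, 3.15 to 3.66). Dnajc1 was at 90.1 and 35.6 CPM (2.53-fold, 2.24 to 2.87). Hspa4l, an Hsp110-class exchange factor, was at 36.9 and 17.8 CPM (2.07-fold, 1.73 to 2.49), but was not called with TMM, without receptor, mitochondrial and ribosomal genes, with each cell's CPM averaged, in thinned cells, with a pseudocount of 10 or with cells classed by coreceptor UMIs in place of labels. Dnajb4 was at 9.38 and 25.6 CPM, 2.73-fold lower in tumor (2.19 to 3.41), and Hspb11 at 12.4 and 41.0 CPM, 3.31-fold lower (2.76 to 3.99).

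The ER genes were not uniform. Hspa5 stood at 510 CPM in tumor Cd4 and 288 in lymph node Cd4 (1.77-fold, 1.69 to 1.85), and Hsp90b1, the ER Hsp90, at 227 and 116 (1.96-fold, 1.83 to 2.10). Dnajc3, which shares the exact ER stress element with both, did not follow them, at 142 and 152 CPM (0.935-fold, 0.872 to 1.00). Dnajb9, a J-domain partner of the ER Hsp70 that is itself a target of the unfolded protein response, was at 52.2 and 87.6 CPM (0.596-fold, 0.538 to 0.660). The 6 CCT genes ranged from 0.737-fold for Cct5 (0.687 to 0.790) to 0.948-fold for Cct3 (0.848 to 1.06), with 0 of 6 above 0 on the log2 scale in all 3 scalings. Their median lay 0.55 below that of all genes, and the ER median 0.32 above it.

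Among the remaining groups, Hspa4, a cytosolic exchange factor, was lowest of the constitutive genes at 0.746-fold (0.690 to 0.806). Hspa9, the mitochondrial Hsp70, was at 59.8 and 57.7 CPM (1.04-fold, 0.928 to 1.16), and its direction turned under both other scalings. Dnajb6 was at 192 and 96.4 CPM (1.99-fold, 1.84 to 2.15), just under the threshold, and Dnajc7, a cochaperone that binds Hsp70 and Hsp90, was lowest of the other J-domain genes at 0.689-fold (0.621 to 0.764). The heat shock element in the Dnajb6 window printed above is also upstream of Hspe1, which was at 253 and 437 CPM (0.579-fold, 0.553 to 0.606), so genes with that element lay on opposite sides. Without ribosomal genes in the total Hspe1 was called lower in tumor, here and in the comparisons of the libraries and of Tdp with Cd8.

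Tumor Tdp set against lymph node Cd8 uses the other label of each library. Of 40 counted genes 4 were called higher in tumor Tdp, against 11.4% of 4836 genes, and 1 lower, against 5.13%. The higher genes were Hspa4l at 26.5 and 12.0 CPM (2.20-fold, 1.87 to 2.59), Dnajb6 at 195 and 92.8 CPM (2.10-fold, 1.98 to 2.23), Dnajc1 at 85.5 and 41.4 CPM (2.06-fold, 1.89 to 2.26) and Hsp90b1 at 225 and 111 CPM (2.04-fold, 1.93 to 2.15). Hspb11 was the lower gene, at 16.1 and 33.7 CPM (2.09-fold lower, 1.82 to 2.41). Of these, Hspa4l and Hspb11 were still called with TMM scaling and Hspb11 alone without ribosomal genes, and the share of all calls higher in tumor fell from 69.0% to 39.2% without ribosomal genes.

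Within the lymph node, 1 of 37 counted genes was called higher in Cd8 than in Cd4, against 2.12% of 4529 genes, and 0 were called lower, against 1.44%. That gene was Dnajc15, at 305 CPM in Cd8 and 91.7 CPM in Cd4 (3.33-fold, 3.09 to 3.58). Hspa1a was at 32.1 and 44.1 CPM (0.727-fold, 0.638 to 0.827) and Dnajc9 at 55.1 and 38.7 CPM (1.43-fold, 1.26 to 1.61), each on the same side as in tumor Tdp against tumor Cd4, which shares no cells with this comparison. Over 35 chaperone genes counted in both comparisons, 22 lay on the same side of the median of all genes, or 62.9%, and the same held for 63.0% of the 4049 genes counted in both, so the chaperones were close to the background.

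In Treg-labelled against Cd4-labelled lymph node cells, 2 of 42 counted genes were called higher, against 10.5% of 5184 genes, and 0 were called lower, against 1.41%. They were Hspa4l at 44.1 and 17.8 CPM (2.48-fold, 1.88 to 3.25) and Dnaja4, a cytosolic J-domain gene, at 20.5 and 8.90 CPM (2.30-fold, 1.53 to 3.42). With TMM scaling, which moved all log2 ratios by -0.34, neither was called, and neither was called without ribosomal genes. The chaperone median lay below that of all genes in all 3 scalings, as given above. Another scaling changed the direction of 22 of the 42 genes in this comparison. The share of all calls that were higher went from 88.2% to 65.2% with it. Hspb1, a small heat shock gene that stayed under 20 CPM and is named here after its values were seen, had 35 UMIs in 16 of 321 Treg cells, 7 UMIs in 7 of 1873 lymph node Cd4 cells, 39 UMIs in 21 lymph node Cd8 cells, 4 UMIs in 4 tumor Tdp cells and 6 UMIs in 1 tumor Cd4 cell.

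Dnajc15 encodes a J-domain protein of the inner mitochondrial membrane that is known in mouse CD8+ T cells as a brake on respiratory complex I. Its level was 305 CPM in lymph node Cd8 against 91.7 in lymph node Cd4 and 103 in Treg, a wide gap, and 396 in tumor Tdp, 311 in tumor Cd4 and 360 in tumor Tcell, a narrow range. The tumor Cd4 interval of 302 to 320 CPM overlaps that of lymph node Cd8, 297 to 313 CPM, and lies far above that of lymph node Cd4, 85.6 to 98.2 CPM. In cells thinned to 2000 UMIs, so that depth is equal, a Dnajc15 UMI was found in 45.0% (43.0 to 47.1) of cells labelled Cd4 in tumor, 44.1% (42.2 to 45.9) of those labelled Cd8 in lymph node and 16.7% (15.0 to 18.5) of those labelled Cd4 in lymph node. Unthinned, the shares were 78.3%, 80.3% and 34.3%.

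The same order was seen when cells were classed by their own coreceptor UMIs in place of the labels. Lymph node cells with Cd8a or Cd8b1 UMIs and no Cd4 UMI had 306 CPM of Dnajc15 (298 to 315), those with Cd4 UMIs alone 89.3 CPM (81.5 to 97.6), and the 190 cells with both 163 CPM (143 to 186). In tumor the corresponding levels were 386 CPM (366 to 407), 312 CPM (302 to 323) and 390 CPM (381 to 400). The free RNA of a droplet library adds UMIs to all cells, and its part in the Dnajc15 levels of either library was not tested. Tumor Cd4 cells are largely transgenic and lymph node Cd4 cells are labelled endogenous, so tissue and origin cannot be told apart here.

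**Figure D3:**
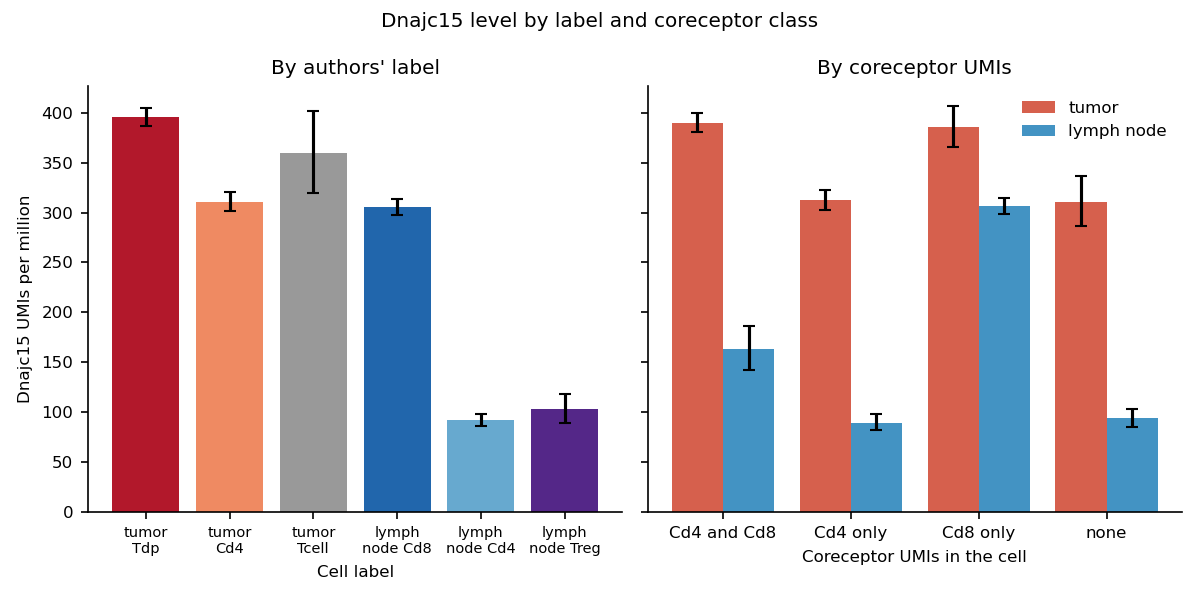
Dnajc15 level in CPM by the authors' label (left) and by coreceptor UMIs in each cell (right, tumor and lymph node side by side); bars are summed UMIs and error bars 95% Poisson intervals that cover counting error. Lymph node cells with Cd4 UMIs alone (89.3) stand well below those with Cd8 UMIs alone (306), while all 4 tumor classes lie at 311 or above.

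The expression of genes that work with the chaperones was read from lists of 30 heat shock factors and cochaperones, 14 ER folding genes, 5 mitochondrial cofactors and 12 immediate early genes in the table. In tumor against lymph node Cd4, 4 of 14 counted ER folding genes were called higher, against 14.7% of all genes, and 0 lower, against 6.21%: Atf6, the membrane sensor, at 30.6 and 2.45 CPM, Sdf2l1, an ER chaperone cofactor, at 54.4 and 15.7 CPM, Pdia6, a disulfide isomerase, at 82.6 and 36.0 CPM, and Creld2 at 43.4 and 19.0 CPM. Among 25 counted heat shock factors and cochaperones 1 was called higher and 0 lower, against the same 14.7% and 6.21%: St13, an Hsp70-binding cochaperone, at 112.5 CPM in tumor Cd4 and 55.6 CPM in lymph node Cd4. Their median log2 ratios were 0.77 for ER folding genes and 0.22 for cochaperones, beside 0.20 for all genes. Neither mitochondrial cofactor counted was called. All calls in these lists are by plain totals. TMM moves the log2 ratios of this comparison by -0.12. Without receptor, mitochondrial and ribosomal genes in the total the median of all genes is -0.17 in place of 0.20. Calls near 2-fold, such as St13, depend on that choice.

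Immediate early genes moved apart from each other. In the same comparison, where 14.7% of all genes were called higher and 6.21% lower, 4 of 12 were called higher, Atf3 at 181 and 5.11 CPM, Fosb at 301 and 45.9 CPM, Ier3 at 30.4 and 7.12 CPM and Jund at 1650 and 540 CPM, and 2 lower, Fos at 142 and 442 CPM and Jun at 164 and 349 CPM. In tumor Tdp against tumor Cd4, 1 of 12 was called lower, Dusp1 at 191 and 470 CPM, against 2.33% of all genes, and 0 higher, against 1.18%. The summed level of the list was 5100 CPM in tumor Tdp, 7034 in tumor Cd4, 4752 in lymph node Cd8, 5424 in lymph node Cd4 and 8341 in Treg. Of these 5 labels Hspa1a was lowest in tumor Tdp, where the list was next to lowest, and highest in Treg, where the list was highest. The orders differed otherwise: lymph node Cd8 had the lowest list but more Hspa1a than tumor Tdp. Lymph node Cd4 had a lower list but more Hspa1a than tumor Cd4. The part of immediate early activity in the Hspa1a levels was not tested.

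Within a label, Hspa1a was spread unevenly over cells. At 2000 UMIs per cell, the variance of Hspa1a over its mean was 2.68 in tumor Cd4, 1.57 in tumor Tdp, 1.55 in lymph node Cd8 and 1.81 in lymph node Cd4, where 1 is the value of pure counting error. The 99% quantile of genes of like mean was 1.18 in tumor Tdp and 1.47 in lymph node Cd4, below Hspa1a. In lymph node Cd8 it was 1.61, above Hspa1a. In tumor Cd4, 2 of 2875 genes with a mean between 0.05 and 0.2 UMIs had a larger ratio, and the median over 48 chaperone genes was 1.01. Hspa1b reached 1.75 in that label, Hsp90aa1 1.56 and Dnajb1 1.52, while Hspd1 at 1.05, Hspe1 at 1.06 and Dnajb4 at 0.984 were near 1. In tumor Tdp Dnajb1 and Hsp90aa1 were at 1.17 and 1.19, with means of 0.38 and 0.43 UMIs. Genes of that label with a mean from 0.2 to 1 had a median of 1.03 and a 90% quantile of 1.22. Hspa5, outside the stress-induced group, was at 1.31 with a mean of 0.83. Hspa8 at 1.38 and Hsp90ab1 at 1.33 had means of 6.19 and 3.5. For genes with a mean from 1 to 10 the median was 1.21 and the 90% quantile 1.77. In the full counts, 30 of 2451 tumor Cd4 cells held 5 or more Hspa1a UMIs each and 46.8% of the label's 554, with 32 in the highest cell.

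In tumor Tdp 19 of 2693 cells held 31.9% of 404 Hspa1a UMIs, in lymph node Cd8 14 cells held 17.2% of 581 and in lymph node Cd4 15 cells held 26.2% of 397. Because few cells carry many of its UMIs, the intervals given for Hspa1a, which treat UMIs as independent, are narrower than the spread over cells. The share of thinned cells with an Hspa1a UMI, to which each cell counts once, was 3.0% in tumor Tdp (2.39 to 3.73) and 4.55% in tumor Cd4 (3.75 to 5.46), and 4.53% (3.78 to 5.37) and 6.18% (5.12 to 7.39) in lymph node Cd8 and Cd4. The unthinned shares were 7.09%, 8.49%, 11.1% and 10.8%.

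**Figure D4:**
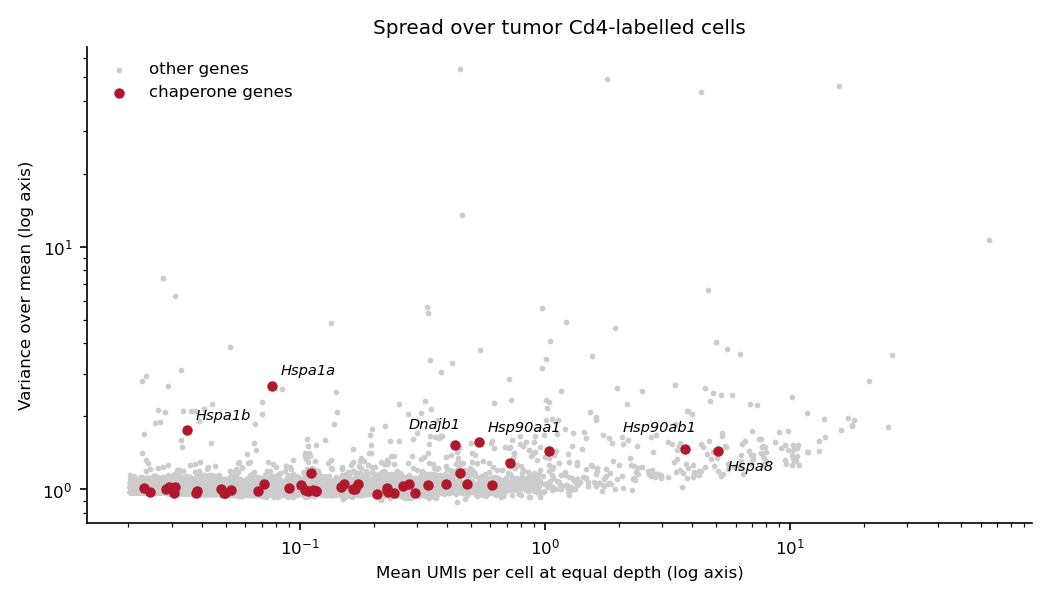
Variance over mean against mean UMIs per cell for genes with a mean of 0.02 or more in tumor Cd4-labelled cells thinned to equal depth, both on log axes; grey points are other genes and red points chaperone genes. Most chaperone genes lie at about 1, and Hspa1a (2.68) and Hspa1b (1.75) stand above most genes of like mean.

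In all 4 labels Hspa1b was found in a larger share of the cells with an Hspa1a UMI. Of 110 thinned tumor Cd4 cells with Hspa1a, 16.4% had Hspa1b, against 2.08% of the others, and the corresponding shares were 7.50% and 1.67% in tumor Tdp, 6.40% and 2.01% in lymph node Cd8 and 9.82% and 2.00% in lymph node Cd4. Across 2418 tumor Cd4 cells, Pearson's r of Hspa1a was 0.31 with Hspa1b, 0.21 with Hsp90aa1, 0.14 with Dnajb1, 0.16 with Hspa8 and 0.16 with Hsp90ab1, so the values with the constitutive genes were as high as that with Dnajb1. Spearman's rho was lower, at 0.19 with Hspa1b, 0.05 with Hsp90aa1 and 0.07 with Dnajb1. With Hspa1b, r was 0.06 in tumor Tdp (2663 cells), 0.14 in lymph node Cd8 (2762 cells) and 0.09 in lymph node Cd4 (1811 cells). With Hsp90aa1 it was 0.09, 0.09 and 0.10 in the same order. With Dnajb1 it was 0.05, 0.04 and 0.15, and lymph node Cd4, where rho was 0.13, thus lay at the level of tumor Cd4. Cells of a label share their library, and misassigned reads alone can tie Hspa1a to Hspa1b.

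To see whether chaperones vary with immediate early genes, cells of each label were ranked by their immediate early UMIs at equal depth and divided into 3 equal parts. Hspa5 was higher in the highest part in all 4 labels, by 1.56-fold in tumor Tdp (1.40 to 1.73), 1.58-fold in tumor Cd4 (1.43 to 1.74), 1.55-fold in lymph node Cd8 (1.36 to 1.78) and 1.50-fold in lymph node Cd4 (1.29 to 1.75). Hsp90aa1 was higher by 1.34-fold, 1.59-fold, 1.38-fold and 1.41-fold in the same order, and Dnaja1 by 1.29-fold, 1.31-fold, 1.40-fold and 1.29-fold, all with intervals above 1. Dnajb1 was higher by 1.37-fold in tumor Cd4, 1.49-fold in lymph node Cd8 and 1.50-fold in lymph node Cd4, and by 1.06-fold (0.906 to 1.23) in tumor Tdp.

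Hspe1 did not take that direction, at 0.825-fold in tumor Tdp (0.729 to 0.935), 0.830-fold in tumor Cd4 (0.718 to 0.959), 0.930-fold in lymph node Cd8 (0.852 to 1.01) and 1.05-fold in lymph node Cd4 (0.924 to 1.18). Hspa1a was higher in the highest part in tumor, by 1.74-fold in Tdp (1.06 to 2.91) and 1.93-fold in Cd4 (1.31 to 2.88), while in lymph node its ratios were 0.907 (0.625 to 1.32) in Cd8 and 1.18 (0.777 to 1.81) in Cd4. The Tdp ratio rests on 27 and 47 UMIs. As stated above, intervals for Hspa1a are narrower than its spread over cells. A difference between tumor and lymph node in these ratios is thus not shown. Hspa1b, whose reads can be swapped with those of Hspa1a, had ratios of 0.763 (0.372 to 1.53) in tumor Tdp and 1.72 (0.934 to 3.27) in tumor Cd4. In lymph node Cd8 and Cd4 they were 1.17 (0.653 to 2.105) and 1.85 (0.905 to 3.955). All these Hspa1b intervals include 1. The median log2 ratio over the counted stress-induced genes was 0.14 in tumor Tdp, 0.38 in tumor Cd4, 0.30 in lymph node Cd8 and 0.30 in lymph node Cd4, beside 0.03, 0.02, 0.04 and 0.00 for all genes. The highest parts had lower full depth than the lowest parts, with medians of 6371 and 7018 UMIs in tumor Tdp and 5160 and 5892 in tumor Cd4, and the part of depth or cell state in these ratios was not tested.

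**Figure D5:**
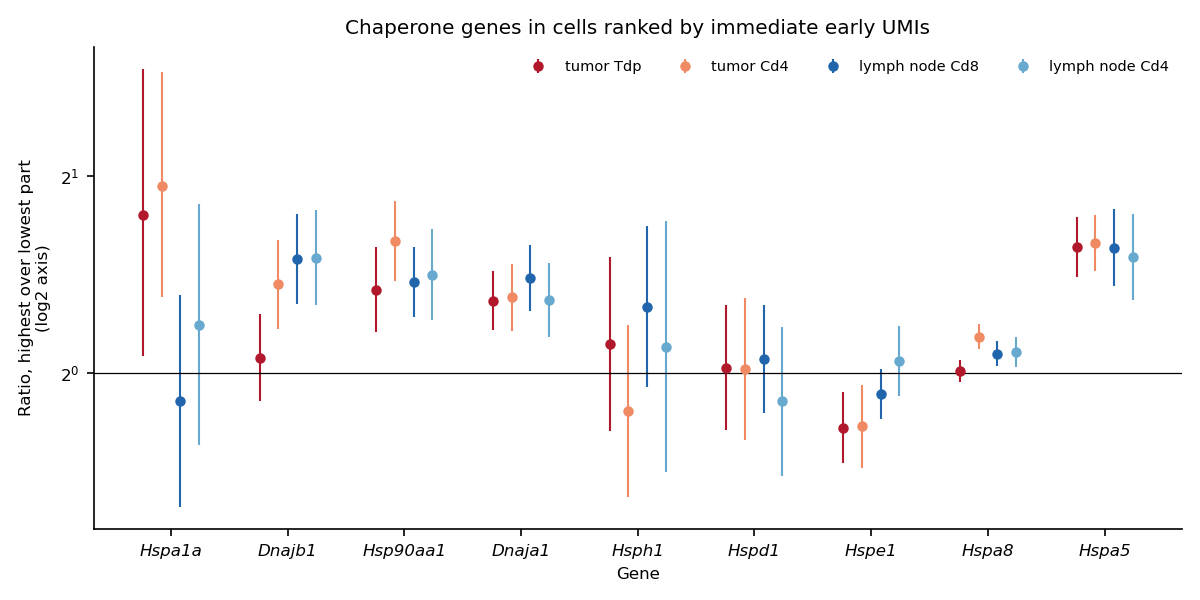
Ratio of level in the part of cells with most immediate early UMIs over the part with fewest, on a log2 axis, for 9 chaperone genes in 4 labels; bars are 95% counting intervals and the line marks no difference. Hspa5, Hsp90aa1 and Dnaja1 lie above 1 in all 4 labels, and Hspe1 lies below 1 in both tumor labels.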

How the data were processed

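The submitters' processing notes name Cell Ranger 3.1.0 and build mm10, and per the labels' protocols the chemistry was 10x 5′. The authors deposited raw UMI counts per gene and cell, both libraries in 1 table, and an annotation with other values per cell (library, label, clonotype, receptor sequences); the sources used here give no cell filters or doublet treatment, and no doublet caller was run.

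The members, lists and rules were chosen with earlier results of these data known. Counts were summed per label, scaled to CPM and compared as log2 ratios of CPM plus a pseudocount of 1, with receptor segments left out of the calls, and Cd4, Cd8a and Cd8b1 too except between the libraries. Genes with 20 CPM in either group were counted. Intervals at 95% were exact Poisson (conditional for ratios) and, for shares of cells, Clopper-Pearson. Cells were also thinned to 2000 UMIs, leaving out 257 tumor and 100 lymph node cells. No p-values were computed. Tumor Tdp and Cd4 cells with a transgenic chain formed the first of 6 comparisons. In the stress-induced group every gene at 20 CPM in a label was named, and Hspa1b, below that in all labels, was named as well. In other groups the named genes were those called in the first 3 comparisons and those with the highest and lowest ratio in comparisons 1 and 3; genes called in later comparisons were named as well. From the other lists called genes were named. Alternatives included TMM scaling (edgeR 4.0.16), totals without receptor, mitochondrial and ribosomal genes, minima and pseudocounts. The ratio and interval code was tested on simulated data. Python 3.11.15 with scipy 1.17.1 was used. Promoter windows were RefSeq's (GRCm38.p6); protein sequences were not used here.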

Additional observations from a re-analysis of the deposited data

How the results depend on the processing

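The count of chaperone genes called in tumor Tdp against tumor Cd4 was 0 under all 11 alternatives. The 3 calls between the libraries became 1 with TMM, 1 in cells thinned to 2000 UMIs (Hspb11 in both), 2 at a minimum of 50 CPM, 7 without one and 0 with a pseudocount of 10; without receptor, mitochondrial and ribosomal genes they were again 3, but Hspb11, Dnajb4 and Hspe1, all lower. The 5 calls in tumor against lymph node Cd4 became 4 with TMM, 4 with the mean of cell CPM (Hspa4l lost in both), 6 without receptor, mitochondrial and ribosomal genes (Hspa4l lost, Dnajb9 and Hspe1 gained as lower), 2 at 50 CPM, 9 without a minimum, 3 with a pseudocount of 10 and 3 with classes from UMIs; in thinned cells Hsp90b1 replaced Hspa4l among 5. The 5 calls in tumor Tdp against lymph node Cd8 became 2 with TMM, 2 without receptor, mitochondrial and ribosomal genes, 3 with the mean of cell CPM, 3 in thinned cells, 3 at 50 CPM, 9 without a minimum and 0 with a pseudocount of 10. The 1 call in lymph node Cd8 against Cd4 became 2 without a minimum and 2 with classes from UMIs. The 2 calls in Treg against Cd4 (Hspa4l and Dnaja4) became 0 with TMM, 1 without ribosomal genes (Hspb1, neither of the 2), 3 with the mean of cell CPM (Dnajc1 added), 3 in thinned cells (Dnajc21 added), 0 at 50 CPM, 7 without a minimum and 0 with a pseudocount of 10. Dnajc15 was called in both of its comparisons under every alternative run. Apart from the minimum, which changes the genes counted, the cause was not tested. Of 2579 single-gene values under alternatives, 344 moved beyond the counting interval, 245 of them under another scaling, and no called value changed sign. No paired analysis was possible because each tissue has 1 RNA library. Depth limits the 26 genes below 20 CPM, the tumor Tcell label and Treg.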
